A study of Mus musculus with 14 samples.

Results

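The cardiac sodium and potassium channels described here are 9 genes, given as a list of symbols, of 54532 gene identifiers counted in 14 mouse heart libraries. They are *Scn4b*, *Kcnj2*, *Kcnj8*, *Kcnj11*, *Abcc9*, *Kcnq1*, *Kcnd2*, *Kcnip2* and *Kcnh2*, and each was matched to 1 Ensembl identifier through GENCODE M21. The libraries were Lexogen QuantSeq FWD libraries, which read the 3′ end of polyadenylated transcripts, from hearts of C57BL/6 mice. The labels put the mice at day 180 after birth, whereas the text of the study states an older age. There were 4 libraries labelled WT, 4 labelled YG8-800, 3 of female KIKO-700 mice and 3 of male KIKO-700 mice. YG8-800 mice lack both working copies of a mouse gene through a deletion present in every cell and carry 1 copy of a human transgene with a long repeat expansion, and the WT mice were labelled as their controls. KIKO-700 mice carry the deletion on 1 allele and a knocked-in repeat expansion on the other, also in every cell, and the knock-in was bred from very few embryonic stem cell chimeras. WT hearts of the KIKO-700 cohort were not analysed here, so the KIKO-700 libraries were compared only between the sexes. Each library is 1 mouse by the study's methods.

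Cardiac excitation runs on sodium and potassium currents in sequence. Sodium channels open first and give the upstroke of the action potential, and potassium channels of several families then bring the membrane back to rest. In the mouse ventricle repolarisation is fast and relies mainly on the transient outward current and other rapidly activating potassium currents, whereas the delayed rectifiers carried by KCNQ1 and KCNH2 are known above all from human long QT syndrome. ATP-sensitive potassium channels couple membrane potential to the energy state of the cell.

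Total counts ranged from 5226233 to 11650840 per library (median 7999144), and genes of mitochondrial DNA took 28.9% to 44.6% of them. Ventricular markers such as *Myl2* and *Myh6* summed to 22893 to 44157 normalised counts (CPM, scaled to library totals with TMM factors over the 14 libraries) in all libraries, as the tissue label states. *Xist*, an RNA of female cells, was near 0 CPM in WT 3, YG8-800 2 and YG8-800 4 and high in the other 5 libraries labelled WT or YG8-800, for which the labels give no sex and the study names males. Whether the labels WT and YG8-800 stand for the genotypes was not settled here, and both names mean the library labelled so. The biological coefficient of variation was 0.351 among the libraries labelled WT or YG8-800 and 0.17 in KIKO-700, so that smaller differences could be called in the latter. In whole hearts, fewer cells of a type and less RNA per cell cannot be told apart.

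The sequences around the RefSeq start of 4 genes are shown. These are the members that passed the adjusted threshold between the sexes once 1 KIKO-700 library was left out. Each is the RefSeq window of GRCm38.p6 from 250 bases before to 50 bases after the annotated start, 5′ to 3′ on the strand of the gene. Capitals mark every match on either strand to CACGTG (the E-box form that clock and MYC-family factors bind), CCAAT (bound by NF-Y), GGGCGG (the GC box of SP factors) or TATAAA (bound by TBP), and no 2 matches overlapped. The windows are chr9:45138374-45138673 (+) for *Scn4b*, chr11:111065914-111066213 (+) for *Kcnj2*, chr6:142571565-142571864 (−) for *Kcnj8* and chr19:45816014-45816313 (−) for *Kcnip2*.
Scn4b: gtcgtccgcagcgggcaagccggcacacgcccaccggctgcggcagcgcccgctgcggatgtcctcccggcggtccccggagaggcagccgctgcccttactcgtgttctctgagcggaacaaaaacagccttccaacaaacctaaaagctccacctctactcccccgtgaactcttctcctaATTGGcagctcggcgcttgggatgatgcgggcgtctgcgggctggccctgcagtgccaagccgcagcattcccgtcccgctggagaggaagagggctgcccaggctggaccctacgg
Kcnj2: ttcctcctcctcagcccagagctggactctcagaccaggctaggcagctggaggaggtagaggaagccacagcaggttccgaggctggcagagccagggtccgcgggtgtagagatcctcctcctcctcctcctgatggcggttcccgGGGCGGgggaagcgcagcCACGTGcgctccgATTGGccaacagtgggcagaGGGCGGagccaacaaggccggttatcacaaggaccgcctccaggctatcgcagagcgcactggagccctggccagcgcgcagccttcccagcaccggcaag
Kcnj8: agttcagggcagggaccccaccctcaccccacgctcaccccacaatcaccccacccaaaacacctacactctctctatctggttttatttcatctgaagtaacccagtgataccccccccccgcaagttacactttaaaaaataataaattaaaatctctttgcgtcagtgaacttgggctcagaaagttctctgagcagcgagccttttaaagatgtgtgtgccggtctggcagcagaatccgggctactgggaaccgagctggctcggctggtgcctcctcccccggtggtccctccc
Kcnip2: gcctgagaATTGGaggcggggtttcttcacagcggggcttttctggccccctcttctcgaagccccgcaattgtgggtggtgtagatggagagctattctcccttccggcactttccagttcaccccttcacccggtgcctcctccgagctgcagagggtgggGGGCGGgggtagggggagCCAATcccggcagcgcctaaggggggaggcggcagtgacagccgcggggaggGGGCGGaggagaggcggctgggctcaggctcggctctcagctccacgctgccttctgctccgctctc
*Kcnj2* held the only CACGTG among the 7 members found in the RefSeq table, and 7.24% of 27025 promoters of that length held one. It also held 2 matches to GGGCGG and 1 to CCAAT. *Kcnip2* held 2 matches to CCAAT and 2 to GGGCGG, *Scn4b* held 1 to CCAAT, and *Kcnj8* held none of the 4 motifs. CCAAT was present in 37.9%, GGGCGG in 35.9% and TATAAA in 14.2% of all these promoters, and no member held TATAAA. *Kcnj8* also had the lowest GC content of the 7 windows, 53.3%, against 65.7% to 74.3% in the others. RefSeq and GENCODE starts can differ. The GENCODE gene of *Scn4b* starts at 45138395, so most of its window, with the marked match, lies inside that gene. The *Kcnh2* window, chr5:24329542-24329841 with 74.3% GC, lies wholly inside its GENCODE gene, far from the 5′ end at 24351604. The motif matches are descriptions of the letters only.

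*Scn4b* (ENSMUSG00000046480, chr9:45138395-45154152, + strand, GRCm38, with 1 annotated transcript of 5 exons) encodes an auxiliary β subunit of the cardiac sodium channel. It was counted at 1.69, 10.8, 3.47 and 4.27 CPM in WT 1 to 4 and at 11.9, 7.02, 7.33 and 6.65 CPM in YG8-800 1 to 4. WT 2 alone lay within the range of the YG8-800 libraries, and the other 3 WT libraries lay below all of them. The KIKO-700 females were at 4.76, 3.21 and 2.79 CPM and the males at 2.28, 9.32 and 8.04 CPM. Males 2 and 3 were above every female and male 1 was below every female.

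*Kcnj2* (ENSMUSG00000041695, chr11:111066164-111076821, + strand, 2 exons) encodes Kir2.1, the main pore subunit of the inward rectifier that holds the ventricular resting potential. Its level was 1.27, 13.1, 8.24 and 1.03 CPM in WT 1 to 4 and 5.4, 2.09, 2.49 and 1.31 CPM in YG8-800 1 to 4. The spread inside the WT group covered all 4 YG8-800 values. In KIKO-700 the counts were too few for a stable level, with 3, 6 and 1 reads in the females and 1, 22 and 25 reads in the males. These reads correspond to 0.357, 0.665 and 0.127 CPM in the females and to 0.12, 2.89 and 2.34 CPM in the males, and again males 2 and 3 stood above the other 4 libraries.

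*Kcnj8* (ENSMUSG00000030247, chr6:142564837-142571614, − strand) encodes Kir6.1, the pore of the ATP-sensitive channel of vascular smooth muscle and pericytes. It was at 13.5, 15.8, 14.8 and 9.71 CPM in WT 1 to 4 and at 14, 18.4, 11.7 and 17.5 CPM in YG8-800 1 to 4. It was at 15.4, 17.4 and 17.4 CPM in KIKO-700 females and at 19.8, 24.7 and 23.6 CPM in KIKO-700 males. All 3 males were above all 3 females, while the WT and YG8-800 ranges overlapped.

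*Abcc9* (ENSMUSG00000030249, chr6:142587862-142702315, − strand, up to 41 exons) lies beside *Kcnj8* and encodes SUR2, the sulfonylurea receptor that regulates ATP-sensitive channels. Its level was 76.4, 92.3, 44.5 and 47.5 CPM in WT 1 to 4 and 48.6, 37.2, 54.6 and 45.4 CPM in YG8-800 1 to 4. WT 1 and WT 2 were above every YG8-800 library and WT 3 and WT 4 were within their range. Females of KIKO-700 were at 58.4, 48.6 and 61.6 CPM and males at 59.5, 53 and 47.9 CPM, which overlapped. The gene has 4 annotated 3′ ends more than 100 bases apart, and its isoforms are not separated in counts per gene.

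*Kcnj11* (ENSMUSG00000096146, chr7:46093953-46100764, − strand) encodes Kir6.2, the pore of the ATP-sensitive channel of ventricular myocytes. Its values were 42.4, 31.6, 15.6 and 35.8 CPM in WT 1 to 4 and 37, 23.2, 34.9 and 41.6 CPM in YG8-800 1 to 4. Those of KIKO-700 were 67.3, 71.3 and 85.1 CPM in females and 92.7, 58.1 and 53.4 CPM in males. Neither pair of groups was separated, and male 1 was the highest of the 14 libraries.

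*Kcnq1* (ENSMUSG00000009545, chr7:143106362-143427042, + strand, up to 16 exons) encodes the pore of the slow delayed rectifier. It was counted at 19.2, 11.5, 8.89 and 8.24 CPM in WT 1 to 4 and at 10.6, 4.56, 10.7 and 9.15 CPM in YG8-800 1 to 4. In KIKO-700 it was at 13.9, 14.5 and 17.4 CPM in females and at 22.1, 12.6 and 12.2 CPM in males. Both pairs of groups overlapped, and male 1 was again the highest library. *Kcnq1ot1*, the long RNA transcribed from the opposite strand inside *Kcnq1* (chr7:143203458-143296549), was assigned 1052 reads over the 14 libraries beside 1519 for *Kcnq1*. It ranged from 3.83 to 16.3 CPM in WT, from 9.48 to 11.1 CPM in YG8-800, from 5.33 to 7.98 CPM in KIKO-700 females and from 2.4 to 5.64 CPM in KIKO-700 males. The study's methods state stranded counting, on which the separation of these genes rests.

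*Kcnd2* (ENSMUSG00000060882, chr6:21215503-21729805, + strand) encodes Kv4.2, the pore of the fast transient outward current in mouse ventricle. Its level was 17.4, 11.9, 7.16 and 3.68 CPM in WT 1 to 4 and 8, 3.7, 11.7 and 8.5 CPM in YG8-800 1 to 4. The WT libraries alone spanned more than the other 3 groups together. Females of KIKO-700 were at 7.86, 7.98 and 8.26 CPM and males at 6, 6.43 and 7.48 CPM, with every male below every female.

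*Kcnip2* (ENSMUSG00000025221, chr19:45791839-45816061, − strand, 10 annotated transcripts) encodes KChIP2, the calcium-binding subunit that Kv4 channels need to reach the surface. It was at 99, 118, 117 and 113 CPM in WT 1 to 4 and at 90.5, 40.4, 100 and 127 CPM in YG8-800 1 to 4. YG8-800 2 was the lowest of the 14 libraries and lay apart from the other 7 of its experiment. KIKO-700 females were at 209, 225 and 245 CPM, and the males were at 475, 164 and 161 CPM. Male 1 was above every female and males 2 and 3 were below every female, so that the mean of the males (267 ± 181 CPM, SD, n = 3) described none of them.

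*Kcnh2* (ENSMUSG00000038319, chr5:24319589-24351604, − strand) encodes the ERG pore of the rapid delayed rectifier. It was counted at 9.51, 8.2, 11.5 and 9.57 CPM in WT 1 to 4 and at 6.3, 8.99, 5.28 and 6.43 CPM in YG8-800 1 to 4. YG8-800 2 was the only library of its group within the WT range. In KIKO-700 it was at 16.1, 15.3 and 19.1 CPM in females and at 18.2, 17.2 and 11.1 CPM in males, which overlapped.

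**Figure D1:**
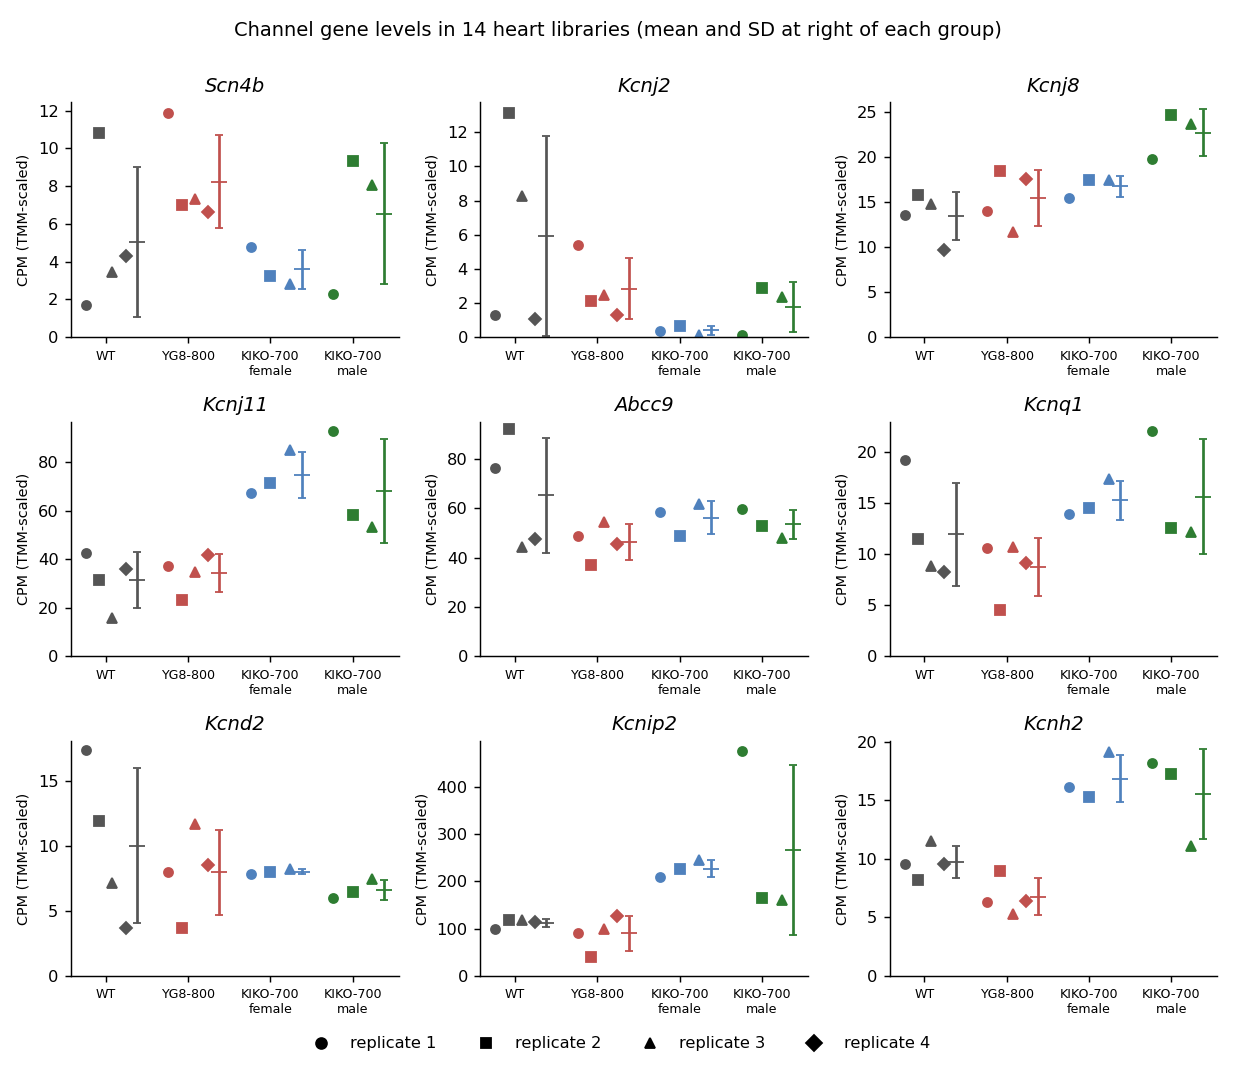
Level of each channel gene in CPM (TMM-scaled, linear axis from 0) in every library of the 4 label groups, with marker shape for the replicate number and the mean with SD to the right of each group. Male 1 of KIKO-700 (circle) is at 475 CPM for *Kcnip2* and at 2.28 CPM for *Scn4b*, on the opposite side of the 3 females from males 2 and 3.

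The YG8-800 group was set against the WT group to ask whether channel transcripts differ with the line. No member passed a threshold. In simulated counts with known changes, 4 of 100 changes of 1 on the log2 scale passed the adjusted threshold in this comparison. Of changes of 2 on that scale, 79 of 100 did. The absence of calls therefore does not show that changes of 1 were absent. All 9 members were among the 11875 genes tested with edgeR's quasi-likelihood test, and 0 of 9 had a Benjamini-Hochberg adjusted p under 0.05, as did 0% of all genes tested. At an unadjusted p under 0.05, which is a count and not a call, 0 of 9 members passed against 6.05% of all genes (718), and 0 of 9 did so with DESeq2, limma-voom or limma-trend. No member had groups that did not overlap, against 3.88% of all genes. The fitted change was below 0 for 6 of 9 members and for 50.5% of all genes, and the median was −0.30 on the log2 scale for the members and −0.01 for all genes.

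Among the sodium channel and resting-potential genes, the fitted differences had wide errors. *Scn4b* had a log2 fold change of 0.70 ± 0.462 (SE) and *Kcnj2* one of −1.03 ± 0.799, with adjusted p of 0.867 and 0.885 by edgeR. The exact permutation test of the labels gave a two-sided p of 0.114 for *Scn4b* and of 0.657 for *Kcnj2*, where 4 against 4 cannot go below 0.0286. Single libraries moved both values. Without WT 2, which held the highest WT level of both genes, the log2 fold change of *Scn4b* was 1.43 (edgeR unadjusted p = 0.00311, adjusted p = 0.997, where all alternatives gave 0.607 to 1) and that of *Kcnj2* was −0.19. Without WT 1 they were 0.39 and −1.38, and without YG8-800 1 they were 0.47 and −1.58.

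Among the repolarising and ATP-sensitive channel genes, *Kcnh2* had the smallest p. Its mean was 9.69 ± 1.36 CPM (SD, n = 4) in WT and 6.75 ± 1.58 CPM (SD, n = 4) in YG8-800, a log2 fold change of −0.48 ± 0.271 with an edgeR adjusted p of 0.839 and an exact permutation p of 0.0571. *Abcc9* had a log2 fold change of −0.45 ± 0.268, *Kcnq1* of −0.41 ± 0.331, *Kcnd2* of −0.30 ± 0.426 and *Kcnip2* of −0.29 ± 0.309. *Kcnj8* and *Kcnj11* were at 0.23 ± 0.259 and 0.16 ± 0.3. Each of these differences was smaller than 2 SE. Over the removals of 1 library, *Kcnq1* ranged from −0.54 to −0.12 (without WT 1, and −0.20 without YG8-800 2) and *Kcnip2* from −0.52 to −0.05 (without YG8-800 2). *Kcnd2* ranged from −0.56 to 0.07 (without WT 1), and *Abcc9* from −0.60 (without WT 3) to −0.24 (without WT 2). *Kcnh2* was at −0.64 without YG8-800 2 (edgeR unadjusted p = 0.0427), and its adjusted p was 0.427 to 1 over the alternatives. With library size as the only scaling the median of all genes was −0.21, and *Kcnj11* was then at −0.11.

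**Figure D2:**
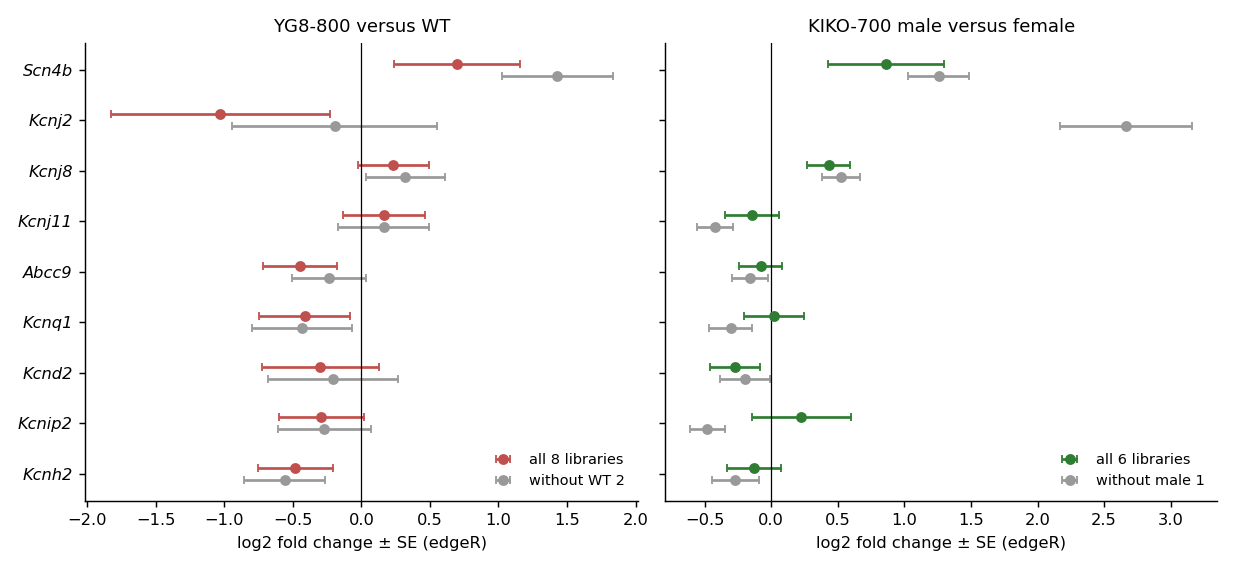
Fitted log2 fold change of each channel gene with its SE (edgeR), for YG8-800 versus WT at left and KIKO-700 male versus female at right; colour shows the fit on all libraries and grey the fit without WT 2 or without male 1. *Kcnip2* goes from 0.23 to −0.48 without male 1. Of the fits drawn at right, only the grey one holds *Kcnj2*, which had too few reads for the fit on all libraries.

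Few other genes of the same currents passed the unadjusted threshold between the labels, which 6.05% of all genes passed. Of 8 sodium channel genes tested, 1 passed the unadjusted threshold, *Fgf12*, a modulator of sodium channel inactivation, which was at 1.32 to 4.12 CPM in WT and 0.218 to 1.76 CPM in YG8-800 (log2 fold change −1.82 ± 0.599, edgeR adjusted p = 0.786). Of 6 voltage-gated potassium channel genes, 4 other inward rectifier genes and 6 K2P and calcium-activated potassium channel genes, 0 passed it. Among 8 sodium-potassium pump genes, *Atp1b1*, the pump's β subunit, passed the unadjusted threshold (−0.70 ± 0.281, edgeR adjusted p = 0.787). Of these 8 genes, 2 were fitted above 0, while 50.5% of all genes were below 0. The pump list summed to 1066 to 1159 CPM in WT against 848 to 984 CPM in YG8-800, without overlap. Among 12 tested regulators of channel genes, 1 was fitted above 0 (median −0.23). *Irx3*, a transcription factor of the ventricular conduction system, and *Hnrnpul1* were lower at −0.70 ± 0.25 and −0.48 ± 0.218 (edgeR adjusted p = 0.786 and 0.816). These 2 of 12 had groups that did not overlap, against 3.88% of all genes. No gene of these lists passed the adjusted threshold. Atrial markers were below 0 for 7 of 8 genes tested (median −0.72) and blood markers for 5 of 5 (median −0.51), with summed levels that overlapped between the labels, from 636 to 1550 CPM in WT against 318 to 1738 CPM in YG8-800 for the atrial list. Conduction system markers were below 0 for 4 of 4 genes tested (median −0.72, 1 past the unadjusted threshold), fibroblast markers for 7 of 8 (median −0.43, 2 past it) and macrophage markers for 6 of 7 (median −0.44, 1 past it). Their summed levels overlapped too, at 11 to 23.4 CPM against 9.92 to 14.8 CPM for the conduction list. Neuron and glia markers summed to 13.8 to 19.9 CPM in WT against 8.61 to 12.6 CPM in YG8-800, without overlap. Of 3 of these tested, 1 was above 0 and 1 was lower past the unadjusted threshold. Ventricular and pericyte markers were each above 0 for 5 of 9 genes, with sums that overlapped. The part of these cell types in the values above was not tested.

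In KIKO-700 hearts, males were compared with females. With all 6 libraries no member passed the adjusted threshold, and *Kcnj8* alone passed the unadjusted one, with a higher level in males. Of the 9 members 8 were tested among 11801 genes, since *Kcnj2* had too few reads. By edgeR, 0 of 8 had an adjusted p under 0.05, as did 0.0678% of all genes (8 genes), and DESeq2, limma-voom and limma-trend also called 0 members. At the unadjusted threshold 1 of 8 passed, against 7.14% of all genes in either direction and 3.39% upwards. The fitted change was above 0 for 4 of 8 members and for 50.9% of all genes.

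*Kcnj8* had a mean of 16.7 ± 1.18 CPM in females and 22.7 ± 2.55 CPM in males (SD, n = 3 each), a log2 fold change of 0.43 ± 0.162 (edgeR unadjusted p = 0.0188, adjusted p = 0.63). The exact permutation p was 0.1, the smallest that 3 against 3 allows. By edgeR the log2 fold change was 0.38 with an unadjusted p of 0.0611 without male 2, and 0.38 with 0.0742 without female 1. Of the pericyte markers, 8 of 9 were above 0 (median 0.26 against 0.01 for all genes) and 1 passed the unadjusted threshold. The list summed to 221 to 236 CPM in males against 186 to 205 CPM in females, without overlap. In females 1 to 3 the sums were 205, 196 and 186 CPM, where *Kcnj8* was at 15.4, 17.4 and 17.4 CPM. Between the experiments the pericyte sums overlapped, at 186 to 236 CPM in KIKO-700 against 198 to 348 CPM in the others. Smooth muscle markers were above 0 for 2 of 6 genes (median −0.12), with 1 past the unadjusted threshold. They summed to 158 to 186 CPM in males against 153 to 193 CPM in females, with overlap. Endothelial markers were above 0 for 6 of 8 genes (median 0.15), with sums that overlapped. Fibroblast markers were above 0 for 3 of 8 (median −0.05). They summed to 1083 to 1193 CPM in males against 1255 to 1450 CPM in females, without overlap. The part of these lists in the *Kcnj8* difference was not tested. *Abcc9*, which pairs with Kir6.1 in the same vascular cells, was at −0.08 ± 0.159 with overlapping groups.

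*Kcnj8* and *Kcnd2* were the 2 of 8 members whose groups did not overlap, against 12.6% of all genes. *Kcnd2* was at 8.03 ± 0.205 CPM in females and 6.64 ± 0.761 CPM in males (SD, n = 3 each), a log2 fold change of −0.27 ± 0.189 (edgeR adjusted p = 0.827). *Scn4b* was at 0.86 ± 0.435, *Kcnip2* at 0.23 ± 0.372, *Kcnj11* at −0.14 ± 0.202, *Kcnh2* at −0.13 ± 0.2 and *Kcnq1* at 0.02 ± 0.224. None of these 5 differences exceeded 2 SE.

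Leaving out male 1 moved several of these values. *Kcnip2* and *Kcnq1* turned direction, to −0.48 and −0.30, while *Scn4b*, *Kcnj8*, *Kcnd2*, *Abcc9*, *Kcnj11* and *Kcnh2* kept theirs. Without male 1, 9 members were tested among 12245 genes and 4 of 9 passed the adjusted threshold, against 7.06% of all genes (864). *Scn4b*, *Kcnj2* and *Kcnj8* were higher in males 2 and 3 than in females, where 4.01% of all genes were, and *Kcnip2* was lower, where 3.05% were. *Scn4b* rose by 1.26 ± 0.229 on the log2 scale (edgeR adjusted p = 0.00147) and *Kcnj2* by 2.67 ± 0.495 (edgeR adjusted p = 0.00175). *Kcnj8* rose by 0.53 ± 0.141 (edgeR adjusted p = 0.0243), and *Kcnip2* fell by 0.48 ± 0.129 on the log2 scale (edgeR adjusted p = 0.0245). These are the sodium channel β subunit, the resting-potential rectifier, the vascular ATP-sensitive pore and the Kv4 subunit. Over the other alternatives the edgeR, DESeq2 or limma adjusted p ranged from 0.121 to 1 for *Scn4b*, from 0.0256 to 1 for *Kcnj2*, from 0.566 to 1 for *Kcnj8* and from 0.82 to 1 for *Kcnip2*. At the unadjusted threshold 5 of 9 passed against 21.3% of all genes, the fifth being *Kcnj11* with −0.42 ± 0.135 (edgeR adjusted p = 0.0598). This fit holds 2 males, and the library left out was singled out after its values were seen. *Scn4b* of male 1 was below the lowest female, its *Kcnj2* held 1 read, as did that of female 3, and its *Kcnj11*, *Kcnq1* and *Kcnip2* were the highest of the 14 libraries.

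Among the other channel genes, 3 leak potassium channels of the K2P family passed the unadjusted threshold between the KIKO-700 sexes. *Kcnk1* (TWIK-1), *Kcnk2* (TREK-1) and *Kcnk3* (TASK-1) were 3 of 7 K2P and calcium-activated potassium channel genes tested, against 7.14% of all genes, and were fitted at 1.24 ± 0.341, 1.19 ± 0.533 and 0.47 ± 0.211, with edgeR adjusted p of 0.449, 0.683 and 0.673. The ranges of *Kcnk2* and *Kcnk3* overlapped between the sexes. Without male 1, 3 of 9 genes of this list passed the adjusted threshold, against 7.06% of all genes, with *Kcnk1*, *Kcnk2* and *Kcnk3* at 1.18 ± 0.33, 1.55 ± 0.414 and 0.66 ± 0.149 (edgeR adjusted p = 0.0329, 0.0242 and 0.00761). Of 9 voltage-gated potassium channel genes, *Kcna5*, the Kv1.5 pore, was higher (0.63 ± 0.27) and *Kcne1*, the β subunit that partners KCNQ1, and *Kcna6* were lower (−0.70 ± 0.26 and −0.65 ± 0.29) at the unadjusted threshold, and none of these passed the adjusted threshold in either fit. *Kcna5* was at 11.8 CPM in male 1 against 6.3 and 5.89 CPM in males 2 and 3, and without male 1 its log2 fold change was 0.25 ± 0.216 (edgeR adjusted p = 0.545). *Gata4* (0.36 ± 0.163) and *Fxyd1*, the regulator of the sodium-potassium pump (0.39 ± 0.168), passed the unadjusted threshold with all 6 libraries (edgeR adjusted p = 0.681 and 0.665). Without male 1, *Mef2c* was higher at 0.51 ± 0.127 and *Tbx5*, a transcription factor of the cardiac conduction system, was lower at −0.85 ± 0.152 (edgeR adjusted p = 0.0158 and 0.00141).

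Side by side, the 2 experiments held different channel levels, which is given as a description with no test because experiment, line and label cannot be told apart. All 6 KIKO-700 libraries were above the other 8 for *Kcnj11* and *Kcnip2*, 2 of 9 members, against 6.7% of 13023 genes above and 11% in either direction. *Kcnj11* was at 53.4 to 92.7 CPM against 15.6 to 42.4 CPM, a ratio of means of 2.18, and *Kcnip2* at 161 to 475 CPM against 40.4 to 127 CPM, a ratio of 2.45 that was 1.99 without male 1. *Kcnh2* had a ratio of 1.97 with 1 overlapping library, 11.1 CPM in male 3 against 11.5 CPM in WT 3. *Kcnq1* (1.49) and *Kcnj8* (1.36) overlapped, *Abcc9* (0.983), *Kcnd2* (0.813) and *Scn4b* (0.763) had similar or lower means, and *Kcnj2* had the lowest ratio, 0.248.

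In the order of group means, 3 pairs of neighbouring groups were separated by their ranges. These were *Kcnj8* between the KIKO-700 sexes, *Kcnj11* between YG8-800 (34.2 CPM) and KIKO-700 males (68.1 CPM), and *Kcnip2* between WT (112 CPM) and KIKO-700 females (226 CPM). The share of all genes with such pairs was not computed. Groups that were not neighbours in this order could be apart too. *Kcnd2* was apart between the KIKO-700 sexes, and *Kcnh2* between WT (8.2 to 11.5 CPM) and KIKO-700 females (15.3 to 19.1 CPM). Mean *Kcnj2* went from 0.383 CPM in KIKO-700 females through 1.78 CPM in KIKO-700 males and 2.82 CPM in YG8-800 to 5.92 CPM in WT. Neighbours overlapped at every step. The KIKO-700 females (0.127 to 0.665 CPM, few reads) nevertheless lay below all YG8-800 (1.31 to 5.4 CPM) and WT (1.03 to 13.1 CPM) libraries. *Scn4b* went from 3.59 CPM in KIKO-700 females to 8.23 CPM in YG8-800, also with overlap between neighbours. Its lowest and highest groups were apart, at 2.79 to 4.76 CPM in KIKO-700 females against 6.65 to 11.9 CPM in YG8-800.

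Other genes and markers moved with this split. *Kcnk3* was at 177 to 370 CPM in KIKO-700 and 80.6 to 151 CPM in the other 8 libraries (ratio 1.98). Of 15 circadian clock genes, a list added after their values were seen, 9 were above and 3 below in all KIKO-700 libraries and 3 overlapped. *Dbp*, an output gene of the clock, was at 29.9 to 47.4 CPM against 1.85 to 12.9 CPM, and *Per3* at 8.86 to 11.7 CPM against 1.74 to 4.14 CPM. *Arntl*, which encodes the activator BMAL1, was at 0 to 0.394 CPM against 1.31 to 8.7 CPM. *Klf15*, a clock-controlled transcription factor, was at 3.93 to 4.92 CPM in KIKO-700 and 4.44 to 16.2 CPM in the other 8. Blood markers summed to 13477 to 19420 CPM in KIKO-700 against 1303 to 5741 CPM, and atrial markers to 2211 to 2992 CPM against 318 to 1738 CPM, without overlap, while ventricular markers overlapped at 33803 to 44157 CPM against 22893 to 41610 CPM. The part of clock phase, blood and atrial tissue in these levels was not tested, and the hour of collection was not found in the sources used here.

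**Figure D3:**
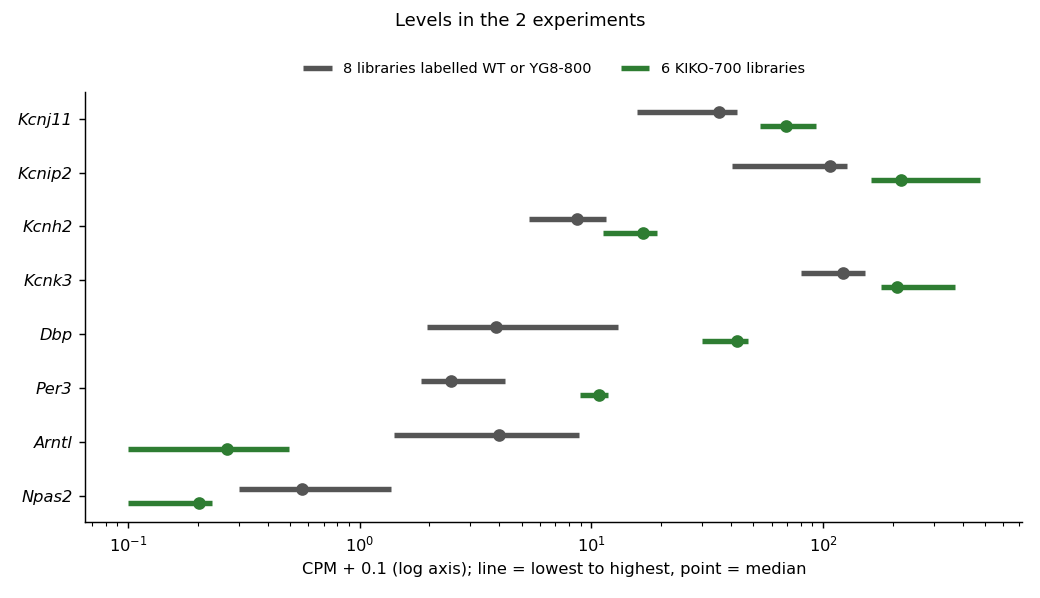
Lowest to highest level (line) and median (point) in CPM plus 0.1 on a log axis, for 3 channel members, *Kcnk3* and 4 clock genes, in the 8 libraries labelled WT or YG8-800 (grey) and the 6 KIKO-700 libraries (green). The lines do not overlap except for *Kcnh2*, where 11.1 CPM in KIKO-700 lies below 11.5 CPM in WT 3.

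Across the 14 libraries, with the mean of each label group taken off, the members fell into patterns that are given as descriptions. The points share library, depth and scaling. *Scn4b* and *Kcnj2* went together (Pearson r = 0.80, Spearman rho = 0.72, and r = 0.69 without KIKO-700 male 1). *Kcnq1* went with *Kcnd2* (r = 0.76), *Kcnj11* (r = 0.73), *Abcc9* (r = 0.70) and *Kcnip2* (r = 0.66), and *Abcc9* with *Kcnd2* (r = 0.74) and *Kcnj11* (r = 0.60). The lowest value was that of *Kcnj2* and *Kcnj11* (r = −0.61). *Kcnj8* and *Abcc9*, neighbours on chromosome 6 whose products form 1 channel, were at r = 0.02.

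**Figure D4:**
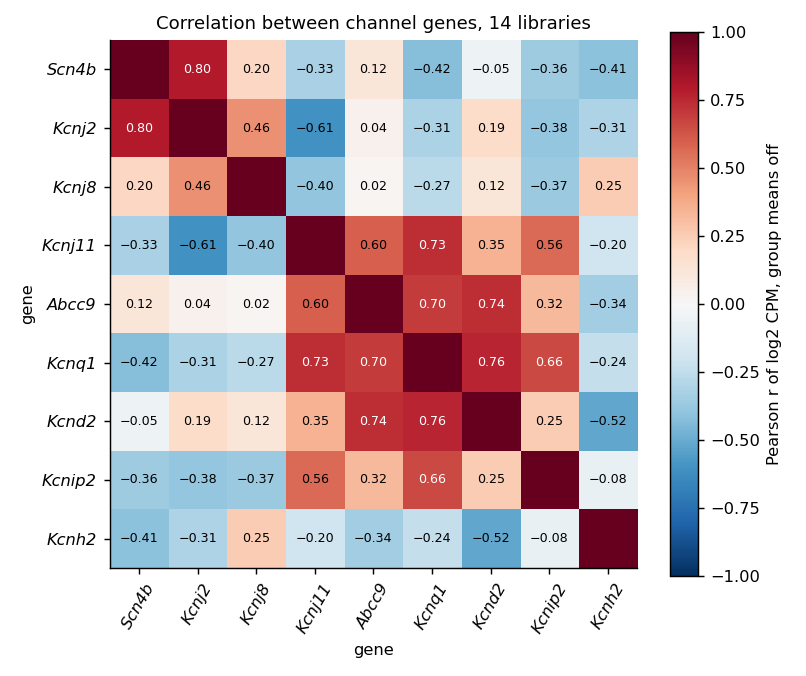
Pearson correlation of log2 CPM between each pair of the 9 channel genes over 14 libraries after the mean of each label group was taken off; the colour scale runs from −1 (blue) to 1 (red). *Kcnj11*, *Abcc9*, *Kcnq1*, *Kcnd2* and *Kcnip2* are positive with one another, from 0.25 to 0.76, and *Scn4b* with *Kcnj2* is at 0.80.

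By the same measure over the 14 libraries, the genes most like each member were *Slc20a2*, *Trip10* and *Tdrd7* for *Scn4b* (r = 0.96, 0.96 and 0.95), and *D3Ertd751e*, *Rbms1* and *Eif4g3* for *Kcnj2* (r = 0.95, 0.94 and 0.94). They were *Trib1*, *Tbc1d22a* and *Mlst8* for *Kcnj11* (r = 0.97, 0.97 and 0.96) and *Med20*, *Rexo2* and *Prmt2* for *Kcnip2* (r = 0.96, 0.96 and 0.94). For *Kcnj8* they were *Grsf1*, *Aasdhppt* and *Abhd17b* (r = 0.96, 0.93 and 0.92), but with the group means kept these fell to −0.16, 0.03 and 0.33. *Fyco1*, *Neo1* and *Dennd4b* were most like *Abcc9* (r = 0.95, 0.94 and 0.94), *Rere*, *Sec63* and *Cacfd1* most like *Kcnq1* (r = 0.95, 0.94 and 0.94), and *Lmo7*, *Nbea* and *Ppm1l* most like *Kcnd2* (r = 0.97, 0.97 and 0.96). *Kcnh2* had no gene as close, with *Atxn7l1*, *Ykt6* and *Mrpl16* at r = 0.86, 0.86 and 0.86, which were 0.12, 0.67 and 0.60 with the group means kept. None of the 27 is a channel gene of the lists used here.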

How the data were processed

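RNA of 14 hearts was read by 3′ sequencing. The authors deposited whole-number counts of reads per Ensembl gene, 1 library per file, with no normalization. The study's methods name Rsubread and featureCounts with stranded counting, whereas STAR 2.5.0a, HTSeq 0.6.1 and GRCm38.p6 are listed in the submitters' processing notes, and the difference was not resolved. Of 54532 identifiers, 54495 were matched to GENCODE M21. Molecular identifiers are not mentioned in the sources used here, so copies of 1 molecule may be counted. The depth was 5226233 to 11650840 counts per library.

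Groups came from the labels. Genes kept by filterByExpr were scaled with TMM factors and compared by the quasi-likelihood test (robust) of edgeR 4.0.16 in R 4.3.3, with Benjamini-Hochberg adjustment over all genes tested and a threshold of 0.05, separately for the 8 libraries labelled WT or YG8-800 and the 6 KIKO-700 libraries. Levels are CPM with TMM factors over 14 libraries, and log2 CPM used a prior count of 2. Single members were also tested by exact two-sided permutation of the labels. Alternatives were other tools (DESeq2 1.42.0, and limma 3.58.1 as voom and trend), other scaling (RLE factors, upper-quartile factors or none beyond library size), other filters (none, or 10 counts or more in each library), a prior count of 0.5, a replicate block, leaving out each library, pseudogenes and Gm-named genes left out, genes of mitochondrial DNA and ribosomal proteins left out, all 14 libraries in one fit, and *Xist* as a covariate. Leaving out WT 3, YG8-800 2 and YG8-800 4 together was chosen after seeing the data.

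The members and lists were chosen with earlier results of these data known, and the clock list was added after its values were seen. The genes named besides the members are up to 4 of each channel, pump or regulator list with the smallest p in a comparison, the 2 with the highest mean, the 3 genes most correlated with each member, and *Kcnq1ot1*. *Klf15*, the clock genes and the marker genes named fall outside this rule and were chosen with their values seen. Promoter windows came from RefSeq (GRCm38.p6), in which 7 of 9 members were found. The test was checked on simulated counts with known changes. The targeted gene and other withheld items are not reported here.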

Additional observations from a re-analysis of the deposited data

Results flagged for a closer look

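*Scn4b* in YG8-800 1 was at 11.9 CPM, while the other 3 YG8-800 libraries were at 6.65 to 7.33 CPM. Its gap to the nearest of them was 0.869 of the range of the group, above Dixon's 95% critical value for 4 samples. It was 1 of 18 groups of 4 looked at (9 genes in 2 groups), and chance gives about 1 in 20.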

How the results depend on the processing

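Of 341 fits of single members under other settings, 313 kept the direction and the side of the unadjusted threshold, 13 passed it in addition, 3 lost it and 12 turned direction, and the 36 permutation values under other scaling or prior counts kept theirs. The cause of these changes was not tested. With library size alone, *Kcnj11* in YG8-800 was at −0.11 and 1 member (*Abcc9*, −0.74) passed the unadjusted threshold. 1 member also passed with no filter (*Kcnj2*) and with *Xist* as a covariate (*Kcnh2*), and 2 passed with all 14 libraries in one fit (*Abcc9* and *Kcnh2*), none of them at the adjusted threshold. Leaving out 1 library gave 0 to 1 members, and log2 fold changes of −0.063 to 0.31 for *Kcnj11* and −0.56 to 0.068 for *Kcnd2*. Leaving out WT 3, YG8-800 2 and YG8-800 4 together gave 0 members and 282 genes at the unadjusted threshold, against 718 with all libraries. Between the KIKO-700 sexes, 1 member passed the adjusted threshold with no filter (*Kcnj2*, 2.15, adjusted p = 0.0256 by edgeR), and 3 with no filter, 2 with DESeq2 and 0 with all 14 libraries in one fit passed the unadjusted one. Leaving out 1 library gave 0 to 4 members at the adjusted and 0 to 5 at the unadjusted threshold, the highest of both without male 1. It gave log2 fold changes of −0.42 to 0.0086 for *Kcnj11*, −0.30 to 0.18 for *Kcnq1*, −0.48 to 0.49 for *Kcnip2* and −0.27 to 0.071 for *Kcnh2*. *Kcnq1* was also at −0.028 with limma-voom, −0.025 with limma-trend and −0.021 with the replicate block. Replicate numbers did not pair the libraries (correlations of −0.23 to 0.25 in the first experiment and −0.19 to −0.04 in KIKO-700), and with the replicate block 0 and 1 members passed the unadjusted threshold. Counts of all genes moved more, from 0 to 107 (YG8-800) and from 8 to 105 (KIKO-700) adjusted calls with no filter, to 146 without WT 4, to 864 without male 1 and to 7 and 18 with DESeq2. At the unadjusted threshold they were 1727 and 1475 with no filter, 1695 without WT 4, 2610 without male 1, 460 without male 2, 502 without female 2, and 1438 and 186 with all 14 libraries in one fit, against 718 and 843. Depth limits *Kcnj2* most, with 1 to 25 reads in a KIKO-700 library.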
